A study of Arabidopsis thaliana with 6 samples.

Results

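Severe heat was set against mild heat in seedlings of Arabidopsis thaliana Col-0 by comparing the arrays of wild type and of the AtrbohB mutant at 40 °C with the arrays of both genotypes at 30 °C. These are 4 of the 6 arrays in the series, 2 at each temperature and 1 for each genotype and temperature, and genotype was kept as a block so that each genotype was compared with itself. The mutant carries a dSpm transposon in At1g09090, the gene AtrbohB, which encodes an NADPH oxidase of the plasma membrane. The series is about heat tolerance and the burst of reactive oxygen that such oxidases make. Seedlings of all groups were raised on MS medium in 16 h days and then floated on distilled water at the stated temperature; how long they were floated is not given in the labels. Each sample pooled 90 plants, so an array is a mean over plants and a group has no replicate. The array of the mutant at 40 °C is marked as a repeat in its title. The annotation lists no probe set for AtrbohB alone, and its level is not analysed here. The third temperature, 20 °C, chose no gene and entered neither the filter nor the main test. Its signals are given as a description. They also entered the alternative fits run on all 6 arrays, among them those with 1 array left out.

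Plants that sense warmth within the range they can survive make heat shock proteins, chaperones that hold and refold damaged proteins, under the control of heat shock transcription factors. A milder heat of this kind raises tolerance of a later, more severe heat, while temperatures near the lethal limit also disturb membranes, respiration and the wall and growth programmes of the seedling. NADPH oxidases take part in both responses, since the reactive oxygen they release acts with calcium as a signal.

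The values are scaled intensities of Affymetrix ATH1 probe sets, called signals here. Each array has a mean of 100.0 once 2% of its values are trimmed at either end, and the medians of the 4 arrays lie between 38.5 and 44.0. Signals under 14, the 25th percentile of the 4 arrays, were raised to 14 (the floor), which holds 23.3% to 27.9% of the probe sets of an array. This floor does not mark detection. Where the dimmer temperature reaches it, the fold change is a lower bound, written "at least". RNA quality differed between the temperatures in some controls: the actin control had a ratio of its 3′ to its 5′ probe set of 6.57 (wild type) and 5.87 (mutant) at 30 °C and of 4.27 and 3.29 at 40 °C. Pairs of values below keep that order of genotypes. For GAPDH these ratios were 1.39 and 1.76 at 30 °C and 1.33 and 1.35 at 40 °C. The 25S ribosomal RNA probe set gave 2328 and 1208 at 30 °C and 2884 and 3195 at 40 °C. The part of these differences in the results below was not tested.

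Tested were the 17723 probe sets that exceeded the floor on 2 or more of the 4 arrays. Of these, 2974 (16.8%) differed at least 2-fold between the temperatures with an adjusted p under 0.05 in limma. In all, 1415 (7.98% of those tested) were higher and 1559 (8.8%) were lower at 40 °C. The word "called" below means past both thresholds, and "rose" and "fell" are kept for called genes. By the adjusted p alone 7695 probe sets (43.4%) passed. At 4-fold or more, 213 were called higher and 413 lower, and at 16-fold or more these counts were 26 and 35. Among genes with a probe set of their own, 702 were called higher and 785 lower of 9841 tested. Among the 4431 dimmest probe sets 236 were called higher and 141 lower, and among the 4431 brightest 380 and 684. The balance of the directions depended on the scale of the arrays: the median of all changes was 0.16 on the log2 scale, and centring each array on its median brought it to 0.03. The centred arrays gave 1007 calls up and 1856 down. Scaling by the hybridization controls, an alternative added after the data were seen, gave a median of -0.20 and 599 higher and 2636 lower. Changes below are best read against the median of 0.16, and values are log2 changes with the limma standard error of 2 arrays against 2. That error rests mostly on a spread shared by probe sets of like signal, and it is no spread between replicates.

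Across the 17723 probe sets the change in wild type and the change in the mutant, which share no array, correlated with r = 0.88; probe sets are not independent replicates, and the value is a description. Of the called probe sets, 0 had opposite signs in the genotypes, but the calling rule largely fixes this count. The difference between the 2 changes is the residual of the test, so a large difference hinders a call. The count is therefore no sign of agreement. By size alone, with no test, wild type had 1358 probe sets past 2-fold upwards and 1552 downwards, and the mutant had 1847 and 1651. In both genotypes these counts were 963 and 1239.

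**Figure D1:**
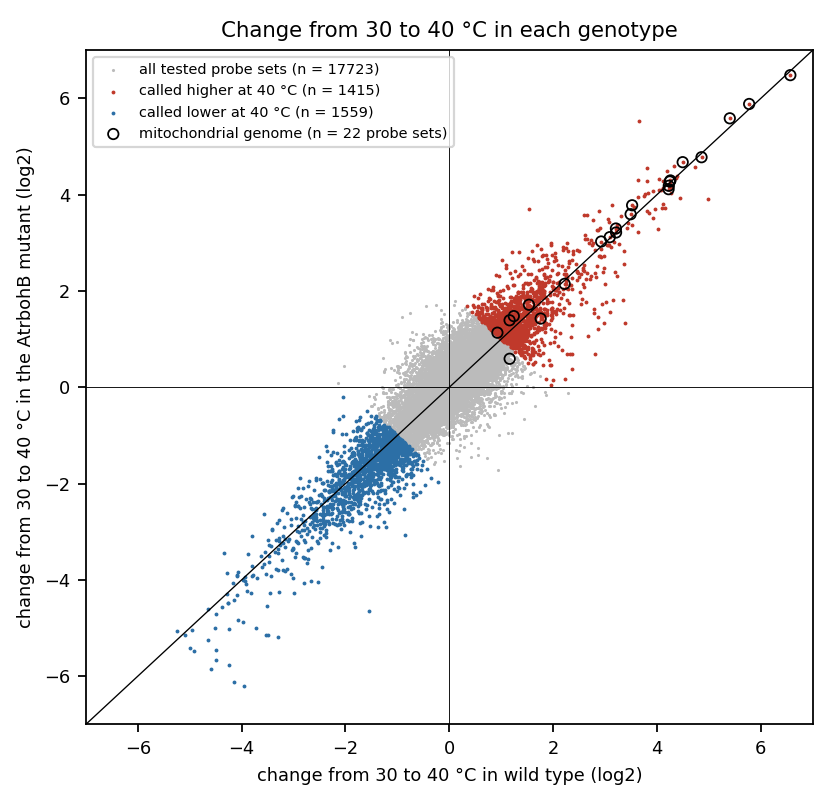
Change of each probe set from 30 to 40 °C in wild type (x axis, log2) and in the AtrbohB mutant (y axis, log2), each from 1 array at each temperature. Red points are the 1415 probe sets called higher and blue points the 1559 called lower; black rings are probe sets of the mitochondrial genome, which lie close to the line of equal change.

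Transcripts of the mitochondrial genome were higher at 40 °C than at 30 °C, with the highest median of all gene lists described here. This genome encodes core subunits of the respiratory complexes, factors of cytochrome c assembly and a maturase. The labels state that labelled RNA was primed with oligo(dT), so the signals come from RNA with a run of A. At 30 °C the complex I subunit gene nad6 had signals of 43.1 and 42.9, and at 40 °C they were 2359 and 2530. That is a rise of 5.83 ± 0.12 (adjusted p = 2.49e-10). Both arrays at 40 °C lay far above both at 30 °C. The nad5 gene, another subunit of complex I, went from 49.8 and 50.6 to 2105 and 2428, a rise of 5.49 ± 0.12 (adjusted p = 3.74e-10). For cox1, the catalytic subunit of cytochrome oxidase, the signals were 76.5 and 80.9 at 30 °C and 2217 in both genotypes at 40 °C (4.82 ± 0.12, adjusted p = 8.69e-10). The signals of ccb203, a gene of cytochrome c assembly, were 5.1 and 6.7 at 30 °C, under the floor, and 315.5 and 357.3 at 40 °C, a rise of at least 24.0-fold (adjusted p = 1.28e-08). In all 4 genes the 2 genotypes lay close together at each temperature and far apart between temperatures. These genes were picked for the largest changes, so the gap between temperatures is a description.

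Of 16 mitochondrial genes with a probe set, 15 were tested and 14 rose, with a median change of 3.65; in the background 7.98% of probe sets were called higher. The exception was nad4, another complex I gene, which was already at 366.7 and 409.2 at 30 °C and reached 820.6 and 616.5 (0.88, adjusted p = 0.0006, under 2-fold). The size of the rise differed widely between genes. It was 4.28 for cox2 and 4.26 for nad4L, but 1.36 for ccb382, 1.62 for orfX and 1.03 for nad7; at 30 °C ccb382 stood at 190.9 and 193.2 and orfX at 92.9 and 89.1, while nad7 reached only 26.6 and 30.7 at 40 °C. Probe sets of 1 gene also differed: 7 probe sets of nad1 rose by 1.28 to 4.2, and 2 of nad5 by 5.49 and 6.52. The nad2 probe set, at 4.2 or lower on the 4 arrays, was not tested. Together the 23 mitochondrial probe sets made up 0.0479% and 0.0471% of the summed signal at 30 °C and 0.560% and 0.587% at 40 °C. Centring the arrays on their medians left 13 of the 15 called and a median of 3.51, and scaling by the hybridization controls left 12 and a median of 3.27.

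**Figure D2:**
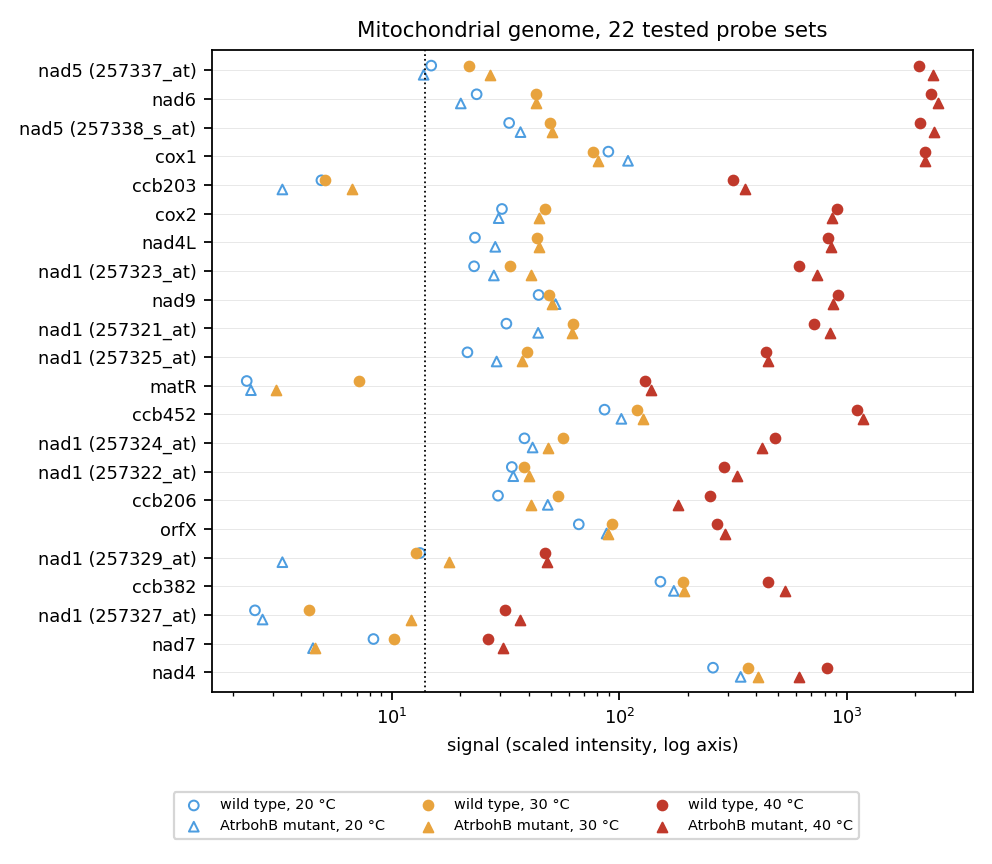
Signals of the 22 tested probe sets of the mitochondrial genome (x axis, log scale), ordered by their change from 30 to 40 °C. Circles are wild type and triangles the AtrbohB mutant, open for 20 °C and filled for 30 °C (orange) and 40 °C (red); the dotted line is the floor of 14, and the 40 °C points lie right of the 30 °C points in each row.

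Loci on chromosome 2 that hold a nuclear copy of mitochondrial DNA rose as well, with 22 of 30 tested called higher and 0 lower and a median of 2.43. AT2G07777 had signals of 66.0 and 72.2 at 30 °C and of 1149 and 1275 at 40 °C (4.13 ± 0.12). The sequences of these loci are near-identical to mitochondrial genes, and some probe sets, including those of nad6 and nad5 above, are marked by the array's maker as matching several transcripts, so the genome of origin of the signal is uncertain. The mitochondrial rise had no match among the nuclear partners of the same complexes: of 47 tested nuclear genes for subunits of the respiratory chain, 0 were called, with changes from -0.75 to 0.67 and a median of 0.27. At an unadjusted p under 0.05, without the 2-fold minimum, 27 of them passed limma. Of 5 tested genes of the response to impaired mitochondria 0 were called; NDB2, an external NAD(P)H dehydrogenase, had 71.1 and 40.5 at 30 °C and 80.9 and 118.5 at 40 °C, a change of 0.87 ± 0.27 (adjusted p = 0.0242). It was the 1 of the 5 with an unadjusted p under 0.05 in limma.

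The plastid genome showed no such rise. Of its 69 genes, all of them tested, 0 were called higher and 2 lower by limma, and the median was 0.04; at an unadjusted p under 0.05 there were 19 in either direction. The 2 are rps18 and rpl33, ribosomal protein genes that lie next to each other on the plastid genome. The rps18 signals were 488.4 and 662.1 at 30 °C and 107.9 and 163.1 at 40 °C, a fall of 2.10 ± 0.13 (adjusted p = 2e-07). For rpl33 they were 2132 and 2458 at 30 °C and 626.3 and 985.0 at 40 °C, a fall of 1.54 ± 0.15 (adjusted p = 8.98e-06). Both arrays at 40 °C lay below both at 30 °C in each case, as the choice of the called genes makes likely. The largest changes in the other direction were 0.45 ± 0.13 for psbJ, a photosystem II gene, and 0.44 ± 0.21 for rpoB, an RNA polymerase gene, neither of which was called. By genotype, wild type had a plastid median of 0.20 and the mutant one of -0.12, and with the scale of the hybridization controls 10 genes were lower. Among 15 tested nuclear factors for organelle RNA editing and processing 3 rose and 0 fell, against 7.98% of all probe sets higher. With the scale of the hybridization controls 1 of these factors rose. CRR28 was at 0.12 (adjusted p = 0.520) with a floor at the 40th percentile, and LPA66 had an adjusted p of 0.0507 without the mutant array at 40 °C. CRR42, a pentatricopeptide protein, went from 26.5 and 32.2 to 114.0 and 126.6 (2.04 ± 0.20).

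Heat shock protein genes went both ways. Small heat shock proteins bind unfolding proteins and keep them from aggregating. Of 19 listed, 10 had a probe set of their own and were tested. Of these 2 rose and 2 fell, against 7.98% of all probe sets higher and 8.8% lower. ATHSP22.0, the form of the endoplasmic reticulum, had signals of 219.6 and 133.5 at 30 °C and of 1074 and 946.1 at 40 °C, a rise of 2.56 ± 0.14 (adjusted p = 1.27e-07). AT5G37670 went from 154.5 and 138.4 to 853.2 and 734.8, a rise of 2.44 ± 0.12. In contrast AT4G21870 fell from 1617 and 2030 at 30 °C to 287.1 and 232.5 at 40 °C (-2.81 ± 0.15, adjusted p = 1.01e-07), which is near its 20 °C signals of 337.1 and 301.7. AT5G51440, a mitochondrial form, fell from 757.6 and 769.3 to 332.6 and 255.9 (-1.39 ± 0.13). The other 6 had differences of -0.03 to 0.94 and no call; among them AT1G53540 stood at 2380 and 2631 at 30 °C and 3252 and 2965 at 40 °C, and AT2G29500 at 2092 and 2276 and at 2255 and 2033. The changes of those 2 cytosolic forms were 0.31 ± 0.16 (adjusted p = 0.133) and -0.03 ± 0.15 (adjusted p = 0.896), and both were bright at both temperatures. At 20 °C all of these signals were 23.6 or lower.

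Of 39 listed chaperones and co-chaperones only 11 had a probe set of their own and were tested. Among these 0 rose and 3 fell, against 7.98% of all probe sets higher and 8.8% lower, with a median of -0.54. The DnaJ-domain gene AT1G71000, named below for its rise, is not among them. Fes1A, which protects HSP70 clients in the cytosol, fell from 1033 and 1056 to 439.9 and 358.3 (-1.40 ± 0.13, adjusted p = 7.32e-06). The peptidyl-prolyl isomerase AT5G48570 (FKBP65, ROF2) had signals of 2500 and 2935 at 30 °C and of 1430 and 1247 at 40 °C, and its change of -1.02 ± 0.15 sits just past 2-fold. Its call was lost without the mutant array at 30 °C (-0.82) or at 40 °C (-0.90). The DnaJ protein AT4G28480 had -1.45 ± 0.18, and its call was lost without the mutant array at 40 °C (adjusted p = 0.0677). AT2G20560, another DnaJ protein, went the other way, from 257.4 and 258.4 to 517.0 and 422.7 (0.86, adjusted p = 2.67e-04, under 2-fold). Of 16 listed genes of endoplasmic reticulum stress 5 were tested, and 2 of these fell and 0 rose. The membrane-bound transcription factor BZIP28 went from 279.6 and 249.1 to 90.9 and 108.6 (-1.41 ± 0.15). The lumenal co-chaperone ATERDJ3B went from 341.5 and 278.9 to 118.7 and 135.6 (-1.28 ± 0.15). BZIP60, the other main factor of that stress, had 142.6 and 160.8 at 30 °C and 147.3 and 185.5 at 40 °C (0.13 ± 0.14).

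Outside the organelle genes, 12 genes were named for the largest rise. The largest was that of AT4G27657, at 17.6 and 14.1 at 30 °C and 464.6 and 336.1 at 40 °C (4.65 ± 0.18, adjusted p = 7.25e-09). AT4G27652, which lies 1 gene away from it on the chromosome, rose from 44.4 and 42.4 to 967.7 and 643.6 (4.18 ± 0.15). AT1G73600, a methyltransferase of phosphocholine synthesis, rose from 44.7 and 40.7 to 624.6 and 960.5 (4.18 ± 0.17). The 20 °C signals of all 3, from 65.8 to 212.9, lay between those at 30 and at 40 °C. AT3G13610, an enzyme of coumarin synthesis, rose from 66.3 and 80.7 to 594.6 and 655.3 (3.09 ± 0.13, adjusted p = 1.39e-08).

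The 20 °C arrays divided the others. AT1G71000, a gene for a DnaJ-domain protein, was under the floor at 20 °C (5.8 and 1.5) and at 30 °C (5.8 and 4.0) and reached 196.0 and 176.2 at 40 °C, at least 13.3-fold higher than at 30 °C. AT1G70820, of the phosphoglucomutase family, had 11.4 and 2.7 at 20 °C, 3.2 and 2.5 at 30 °C and 202.2 and 170.8 at 40 °C (at least 13.3-fold). Both genes were bright at 40 °C alone. AT1G13650 stood at 2.0 and 1.6 at 30 °C and at 188.1 and 220.5 at 40 °C (at least 14.5-fold), with 36.3 and 38.5 at 20 °C. By comparison, AT5G20790 had 368.5 and 375.8 at 20 °C, 1.5 and 4.0 at 30 °C and 249.1 and 185.6 at 40 °C (at least 15.4-fold). Its low point was thus at 30 °C. AT3G44450 (BIC2), an inhibitor of cryptochrome blue-light receptors, had 211.7 and 175.8 at 20 °C, 19.2 and 17.8 at 30 °C and 218.8 and 183.9 at 40 °C (3.44 ± 0.20). AT1G04770 (SDI2), a gene induced by lack of sulfur, had 278.8 and 225.3, then 23.7 and 17.0, then 195.9 and 191.4 (3.27 ± 0.21). AT2G15020 had 187.9 and 202.6, then 7.1 and 15.3, then 121.6 and 114.8 (at least 8.07-fold from 30 to 40 °C). A rise from 30 to 40 °C in this comparison therefore covers genes that are bright only at 40 °C among the 3 temperatures and genes that are dim only at 30 °C. A comparison of 30 with 20 °C would share the 30 °C arrays with the one made here, so no count of such courses is given. AT1G72920, of the TIR class of immune receptor genes, completes the set with at least 12.6-fold, from 7.4 and 14.0 to 226.3 and 136.9.

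Another 12 genes were named for the largest fall. AT5G62360, an inhibitor of pectin methylesterase or invertase by its family, had signals of 529.3 and 528.3 at 30 °C and of 2.9 and 15.8 at 40 °C, at least 35.6-fold lower (adjusted p = 3.74e-09). The expansin-like gene EXLA2 went from 490.9 and 599.1 to 15.5 and 5.4 (at least 36.8-fold), and its relative EXLA1 from 1343 and 1810 to 75.9 and 26.1 (-5.13 ± 0.32). Expansin-like proteins resemble expansins, which loosen the wall in growing cells. EXO, a growth gene that responds to brassinosteroid, fell from 2600 and 3104 to 115.0 and 60.9 (-5.09 ± 0.21). GAT1_2.1, a glutamine amidotransferase, fell from 703.9 and 804.4 to 29.3 and 11.7 (at least 37.2-fold). In EXLA1, EXLA2, EXO and GAT1_2.1 both 40 °C arrays lay below both 20 °C arrays as well, with EXO at 305.4 and 377.5. AT5G62360 was dim at 20 °C too, at 9.6 and 17.3.

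The other named falls reach into hormone and stress genes. AT2G38240 and AT5G05600, which encode oxidases that inactivate jasmonate, went from 841.2 and 1090 to 44.7 and 20.1 (adjusted p = 8.24e-08) and from 824.7 and 773.4 to 46.5 and 36.4 (-4.28 ± 0.14, adjusted p = 3.23e-09). JRG21, of the same oxidase family, had 142.9 and 152.5 at 30 °C and 14.6 and 8.3 at 40 °C (at least 10.3-fold lower). Of 32 listed jasmonate genes 4 had a probe set of their own, and only these 3 oxidases were tested. All 3 fell, against 8.8% of all probe sets lower. AT2G38240 and AT5G05600 had already been picked for the size of their fall, so the count does not describe jasmonate genes in general. AT5G19120, an aspartyl protease of its family, fell from 2075 and 1907 to 91.9 and 73.1 (-4.60 ± 0.12), with 645.9 and 803.6 at 20 °C. AT1G17620 fell from 728.9 and 820.7 to 37.3 and 41.6 (-4.30 ± 0.13). AT1G50040 (349.9 and 341.4 at 30 °C), AT1G33055 (269.1 and 314.2) and AT2G23110 (327.2 and 454.4) ended at 17.2 or lower, with falls of at least 24.7-fold, 20.8-fold and 24.8-fold.

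**Figure D3:**
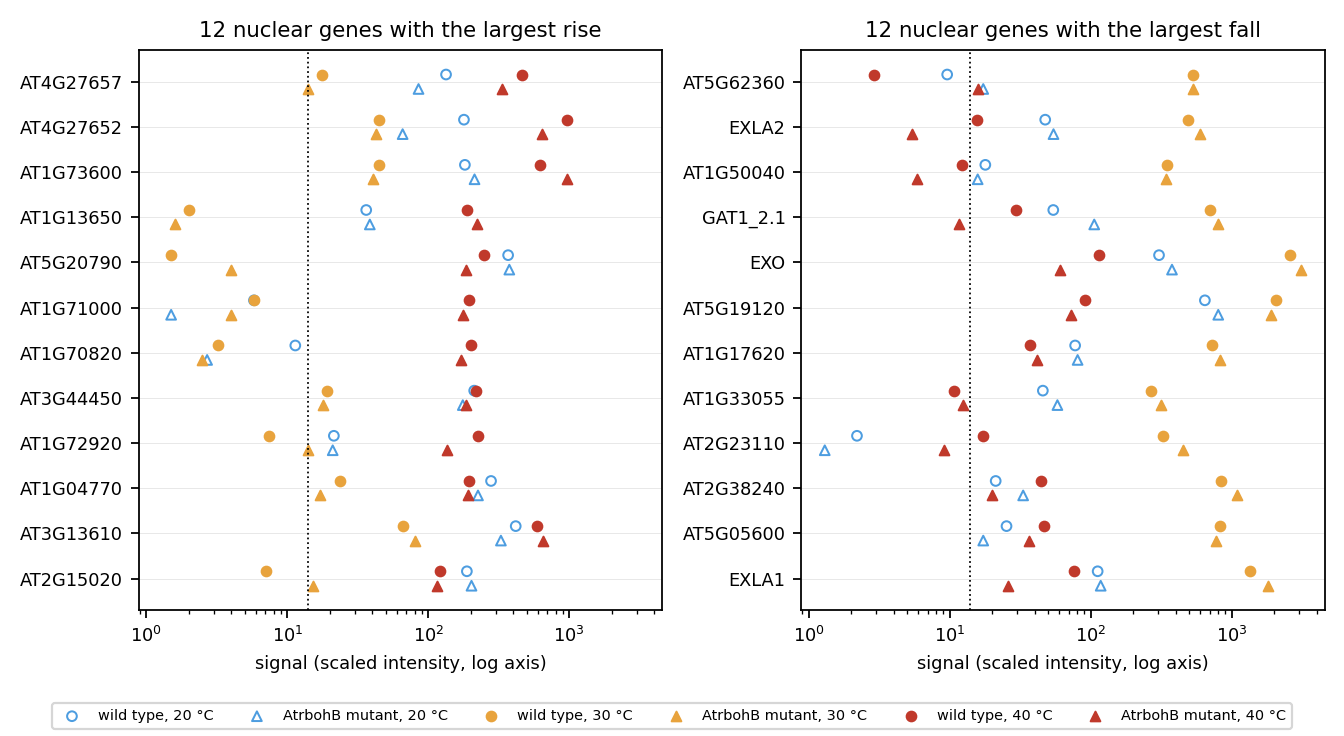
Signals on all 6 arrays (x axis, log scale) of the 12 nuclear genes with the largest rise (left) and the 12 with the largest fall (right) from 30 to 40 °C. Circles are wild type and triangles the AtrbohB mutant, open blue for 20 °C, orange for 30 °C and red for 40 °C; the dotted line is the floor of 14. In the left panel the orange points lie at 80.7 or lower, and in the right panel at 269.1 or higher.

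Families that build and remodel the wall follow. Xyloglucan endotransglucosylases cut and rejoin the xyloglucans that tie cellulose fibrils. Of 6 tested, 0 rose and 4 fell, against 8.8% of all probe sets lower, with a median of -3.17. XTH18 fell from 1573 and 1691 to 93.3 and 59.3 (-4.45 ± 0.17, adjusted p = 6.39e-09), and its tandem neighbour XTH19 from 267.9 and 275.8 to 29.0 and 32.5 (-3.15 ± 0.17). XTH16 fell from 981.9 and 1136 to 86.0 and 48.9 (-4.03 ± 0.20). The fourth, XTH33, had -3.19 ± 0.23, a call lost without the mutant array at 30 °C (adjusted p = 0.0521), while XTH32, at 242.7 and 230.9 and then 309.7 and 345.7, had 0.47 (adjusted p = 0.0118).

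Of all probe sets 8.8% were called lower and 7.98% higher. Of 16 tested expansins and expansin-like genes 4 fell and 3 rose. Beside EXLA1 and EXLA2 these were EXPA16, from 62.7 and 50.1 to under the floor at 40 °C (at least 4.00-fold lower, a call lost with a floor at the 40th percentile), and EXLA3, from 61.9 and 82.1 to 24.9 and 20.7 (-1.65). EXPA8 went up from 42.9 and 39.2 to 106.1 and 110.3 (1.40, adjusted p = 1.40e-04), as did EXPB1 (at least 3.82-fold) and EXPB3 (1.09). Of 8 cellulose synthase family genes, which make cellulose and other wall glucans, 0 rose and 3 fell. CSLD2 went from 417.5 and 455.2 to 155.0 and 87.1 (-1.91 ± 0.19) and CSLA03 from 242.3 and 210.0 to 68.0 and 63.0 (-1.79 ± 0.15). CSLC04 had -1.05, and without the mutant array at 40 °C -0.88, under 2-fold.

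The counts of the next families stand beside 8.8% of all probe sets called lower and 7.98% called higher. Class III peroxidases are secreted enzymes that use hydrogen peroxide to cross-link or loosen the wall. Of 44 tested (55 with a probe set) 12 were lower and 1 was higher. AT5G39580 fell from 477.5 and 454.9 to 30.4 and 28.3 (-3.99 ± 0.15, adjusted p = 6.66e-09), PRX71 (AT5G64120) from 366.9 and 321.3 to 36.9 and 45.6 (-3.07 ± 0.17) and AT4G33420 from 441.0 and 367.0 to 71.1 and 56.0 (-2.67 ± 0.14). The 1 that rose, AT3G01190, went from 60.3 and 43.3 to 108.5 and 126.3 (1.2), and with the scale of the hybridization controls none of the family was higher and 17 were lower. A floor at the 40th percentile left 6 lower. Trichome birefringence-like proteins, which acetylate wall polysaccharides, had 5 of 20 lower and 0 higher. The 5 became 8 with centring or quantile normalization, 9 with the scale of the hybridization controls and 3 with a floor at the 40th percentile. TBL25 went from 412.9 and 408.4 to 150.0 and 153.9 (-1.43 ± 0.12). Tetraspanins, membrane proteins that organise microdomains, had 5 of 13 lower and 0 higher, such as TET2, from 61.7 and 53.9 to 18.0 and 15.5 (-1.79 ± 0.23). The cellulase GH9C2 differed from these, with 56.0 and 42.7 at 30 °C and 205.3 and 210.1 at 40 °C (2.09 ± 0.17), and it was the only 1 of 11 tested cellulases of its family that was called.

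Of 15 tested calmodulin-like calcium sensors 2 rose and 2 fell (13.3% each way), near the 7.98% higher and 8.8% lower of all probe sets. With the scale of the hybridization controls 4 were lower, and with a floor at the 40th percentile 1. CML23 rose from 28.5 and 26.6 to 214.6 and 172.7 (2.81 ± 0.19, adjusted p = 4.61e-07) and AT1G73630 from 26.1 and 21.1 to 72.6 and 59.7 (1.49 ± 0.23). AT1G18210 fell from 646.5 and 701.2 to 260.3 and 204.7 (-1.54 ± 0.14); the fall of CML41 (-1.53) was lost when either wild-type array or the 30 °C mutant array was left out (adjusted p from 0.0630 to 0.0686), and with a floor at the 40th percentile (-0.92). Of 31 listed AP2/ERF factors, a family named for the response to ethylene, 10 were tested. Among these 4 rose and 0 fell, against 7.98% of all probe sets higher. AT1G19210 (1.64) lost its call without the wild-type array at 30 °C (1.25) or at 40 °C (1.26). AT2G22200, under the floor at 30 °C and at least 2.23-fold higher at 40 °C, was at 0.15 with a floor at the 40th percentile. ORA47, a regulator of jasmonate synthesis, rose from 40.2 and 39.3 to 319.6 and 173.6 (2.57 ± 0.21, adjusted p = 2.09e-06), in contrast to the jasmonate oxidases above. AT5G52020 rose from 22.2 and 29.2 to 142.0 and 60.9 (1.87 ± 0.32), a call lost when wild type at 30 °C, wild type at 40 °C or the mutant at 30 °C was left out (1.37, 1.16 and 2.37, adjusted p from 0.0516 to 0.119).

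STZ, a zinc finger repressor of the response to reactive oxygen and salt, had signals of 183.4 and 257.4 at 30 °C and of 1327 and 596.4 at 40 °C. Its change of 2.03 ± 0.27 (adjusted p = 1.22e-04) was lost without the wild-type array at 40 °C (adjusted p = 0.200) or the mutant array at 40 °C (adjusted p = 0.131), and with a robust prior (adjusted p = 0.0733). WRKY22, a factor of basal immunity, fell from 337.4 and 350.7 to 65.4 and 44.9 (-2.67 ± 0.17), the 1 called of 5 tested WRKY factors. Of 7 tested bZIP factors 3 fell, BZIP28 among them, and 0 rose, against 8.8% of all probe sets lower. BZIP61 had -1.23 ± 0.17. Its call was lost without wild type at 30 °C (-0.93), wild type at 40 °C (-1.26) or the mutant at 40 °C (-1.19). BZIP53, a factor of amino acid metabolism under low energy, fell from 778.5 and 904.0 to 359.8 and 231.7 (-1.54 ± 0.17), with an adjusted p of 0.0507 without the mutant array at 30 °C. Of the NADPH oxidase family only AT1G19230 was tested, at 11.9 and 15.2 and then 24.2 and 18.8 (0.55, adjusted p = 0.0728).

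Glutathione transferases, which join glutathione to toxic and oxidised compounds, had 7 of 12 higher and 0 lower, against 7.98% of all probe sets higher, and a median of 1.11. GSTU20 rose from 263.2 and 235.6 to 1300 and 1443 (2.46 ± 0.13, adjusted p = 7.65e-08), past its 20 °C signals of 434.1 and 410.4. GSTU25 rose from 23.5 and 25.5 to 100.1 and 132.4 (2.23 ± 0.21). GSTU16 (1.1), GSTU26 (1.13) and GSTU27 (1.12) sit near 2-fold, and centring left 4 calls of the 7. Of 4 scavengers of reactive oxygen only SAPX, the ascorbate peroxidase of the chloroplast stroma, was called, from 81.0 and 80.6 to 188.3 and 170.5 (1.15 ± 0.15). With the scale of the hybridization controls it was under 2-fold (0.77).

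Of 3 tested enzymes of flavonoid and phenylpropanoid synthesis 2 rose, against 7.98% of all probe sets higher. Both are enzymes of flavonol glycosylation. AT1G06000, a rhamnosyltransferase, went from 34.6 and 27.3 to 181.1 and 184.7 (2.57 ± 0.19) and UGT78D2, a glucosyltransferase, from 71.3 and 70.6 to 200.5 and 172.7 (1.39 ± 0.15). Both stayed below their 20 °C signals, which were 492.5 and 533.3 for the first and 700.3 and 600.1 for the second.

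Other stress lists held more falls than rises, in small numbers of tested genes. Tested were 5 of 20 listed genes of cold and abscisic acid and 10 of 24 of low oxygen. Of all probe sets 8.8% were called lower and 7.98% higher. Of 5 tested cold and abscisic acid genes 2 fell and 0 rose: the dehydrins LTI30, from 1331 and 1429 to 223.6 and 219.7 (-2.64 ± 0.12, adjusted p = 2.76e-08), and COR47, from 2993 and 3711 to 978.1 and 923.9 (-1.81 ± 0.15). Dehydrins protect proteins and membranes of dry or frozen cells. At 40 °C LTI30 was near its 20 °C signals of 221.3 and 184.4, while COR47 remained above its 604.3 and 630.7. Of 10 tested core genes of low oxygen 3 fell and 0 rose, with AT1G33055 above, AT4G27450 (948.1 and 947.5 to 224.2 and 267.8, -1.95 ± 0.13) and AT1G19530 (221.8 and 265.4 to 49.9 and 76.9, -1.97 ± 0.16). ATG8E, which tags the membranes of autophagy, fell from 820.1 and 1088 to 194.4 and 249.8 (-2.10 ± 0.12), and ATG8H from 179.0 and 171.3 to 66.7 and 71.9 (-1.34 ± 0.16). They were the 2 called of 10 tested autophagy genes. GH3.3, an enzyme that conjugates auxin, fell from 305.1 and 374.6 to 75.4 and 115.1 (-1.86 ± 0.14).

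Of 107 tested cytosolic ribosomal proteins 2 were called, both higher and both lost under at least 5 alternatives, and the median was 0.27. The 10 photosynthesis genes of the nucleus had 0 called by limma at 2-fold, changes of 0.16 to 0.81 and a median of 0.56, and 9 of them had an unadjusted p under 0.05. Of 5 reference genes 0 were called, with changes from -0.27 to 0.58 and 2 at an unadjusted p under 0.05. Of 6 histone genes 3 were called higher, against 7.98% of all probe sets, and 1 with the scale of the hybridization controls. Of the 3, HTB1 (59.3 and 56.0 to 156.8 and 176.0, 1.53 ± 0.16) was called in all alternatives that tested single genes, while HTB2 and HIS1-3 were lost in 7 and 6 of them. The medians of the ribosomal and respiratory genes turned to -0.11 with the scale of the hybridization controls.

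Marker genes of shoot and root are given next. The 5 tested shoot markers had 0 called by limma at 2-fold and a median of 0.57, with 4 at an unadjusted p under 0.05. Their summed signal went from 11161 and 13067 to 16730 and 17132. Members such as PRK and LHCB4.1 are also among the nuclear photosynthesis genes above, so these are not separate observations. Of 4 tested root markers 0 rose and 2 fell, against 8.8% of all probe sets lower. PYK10, a glucosidase of bodies of the endoplasmic reticulum, went from 1994 and 2158 to 849.8 and 789.9 (-1.34 ± 0.14). PRX72 (AT5G66390) went from 53.4 and 56.4 to 23.6 and 21.4 (-1.29 ± 0.23). The PRX72 call was lost when wild type at 40 °C or the mutant at 30 or 40 °C was left out (adjusted p of 0.0907 or more), and with a floor at the 40th percentile (-0.96). The summed signal of the 4 was 2137 and 2285 at 30 °C and 939.5 and 872.0 at 40 °C, and none was at 0. Most of this sum was PYK10, so it describes mainly that gene. EXPA7 had -0.81 and EXPA18, of root hairs, had 38.0 and 28.7 and then 36.2 and 37.0 (0.15). Neither was called. In whole seedlings fewer root cells and less RNA in each cannot be told apart. Many class III peroxidases are known from roots, and the part of the root markers in the falls above was not tested.

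**Figure D4:**
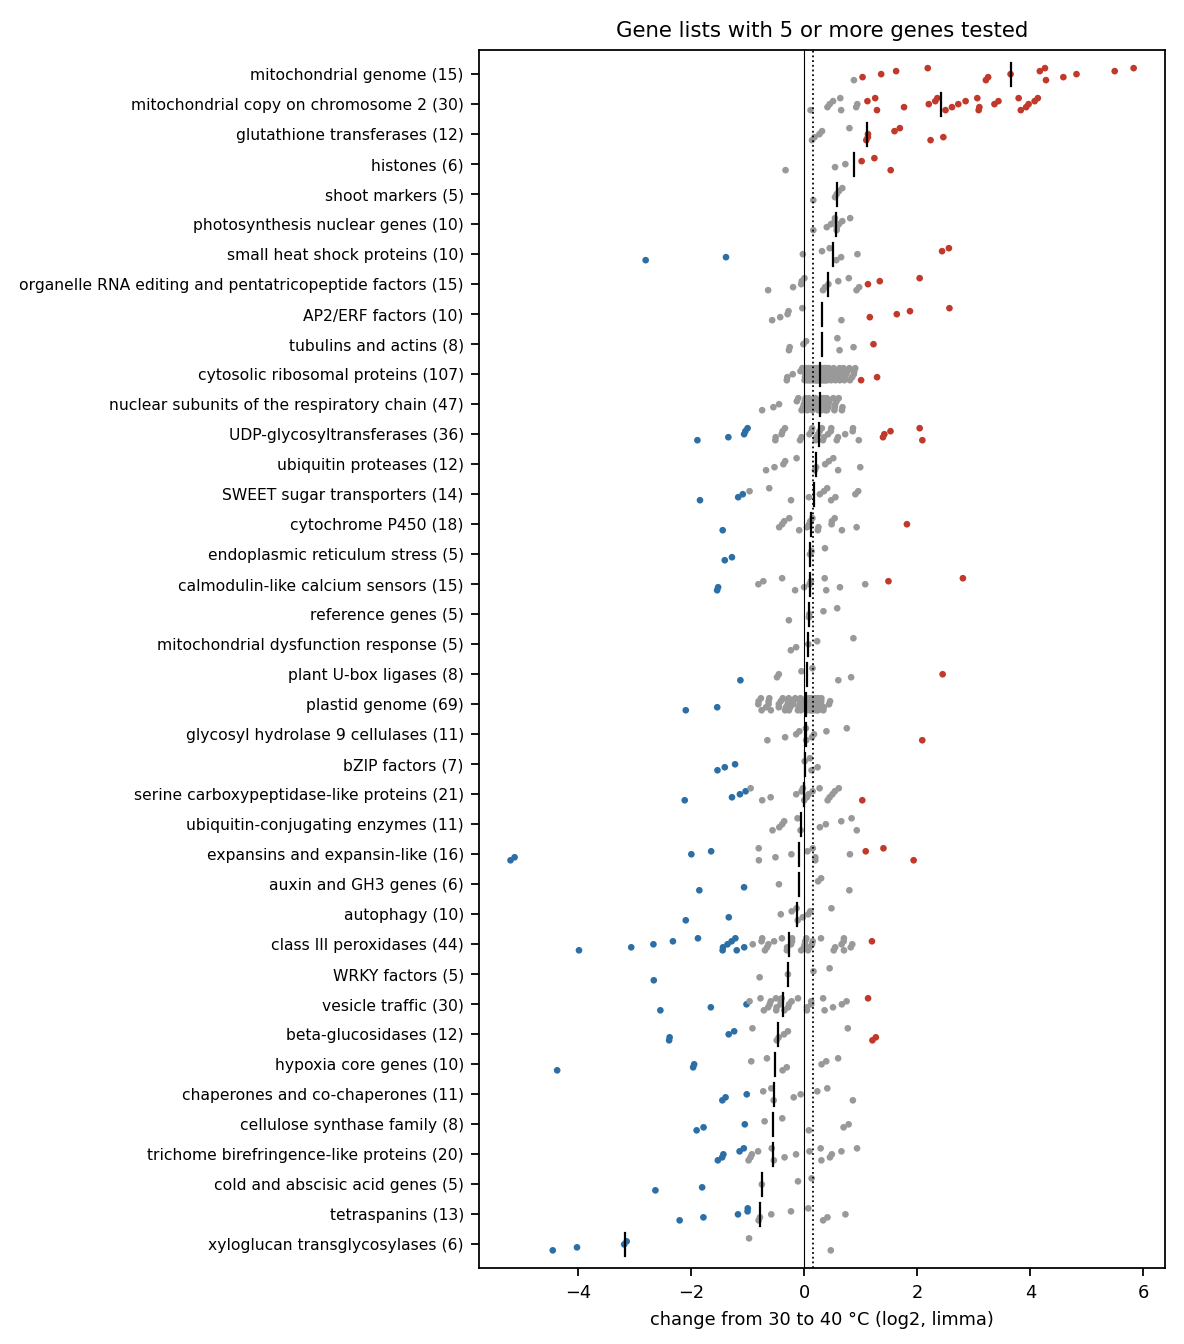
Change from 30 to 40 °C (x axis, log2) of each tested member of the lists with 5 or more tested genes (number tested in brackets). Points are genes, red where called higher, blue where called lower and grey where not called; black bars are list medians and the dotted line is the median of all probe sets, 0.16. The mitochondrial genome lies highest, with a median of 3.65, and the xyloglucan transglycosylases lowest, with -3.17.

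A last description sets the changes of the genotypes side by side. With 1 array for each genotype and temperature, the difference of the changes has no error of its own and was not tested. Among nuclear genes above the floor on all 4 arrays, CML37, a calmodulin-like sensor of wounding, had signals of 16.7 (wild type) and 17.8 (mutant) at 30 °C and of 81.1 and 16.3 at 40 °C. The difference of 40 from 30 °C was thus 2.28 for wild type and -0.13 for the mutant. Its relative CML38 had 117.1 and 129.7 at 30 °C and 316.1 and 82.1 at 40 °C, changes of 1.43 and -0.66. AT1G77640, an AP2/ERF factor, had 130.4 and 139.9 and then 191.2 and 52.7, changes of 0.55 and -1.41. In all 3 the genotypes were close at 30 °C, and the wild-type array was the higher at 40 °C by 1.86 to 2.31.

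EXLA1 fell in both genotypes, further in the mutant (-6.12) than in wild type (-4.14). In the opposite direction AT1G60730, of the aldo-keto reductase family, had 37.6 and 24.6 at 30 °C and 20.1 and 67.4 at 40 °C. AT4G32605 rose in both, by 1.08 in wild type and 2.47 in the mutant; its call was lost when wild type at 30 °C or the mutant at 30 or 40 °C was left out (adjusted p from 0.0582 to 0.134), and with a floor at the 40th percentile, where its change was 0.87. Among all tested probe sets the change in the mutant exceeded that in wild type by 2 or more in 8 and fell short of it by 2 or more in 14. These differences rest on 1 array each, and that of the mutant at 40 °C is the array marked as a repeat.

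**Figure D5:**
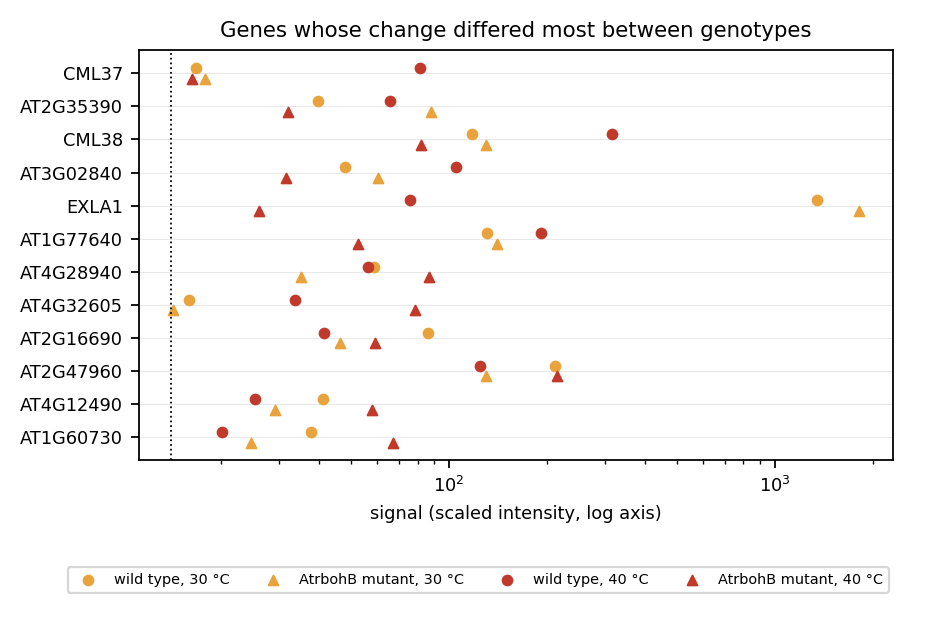
Signals (x axis, log scale) on the 4 arrays at 30 °C (orange) and 40 °C (red) of the 6 nuclear genes with the lowest and the 6 with the highest change in the AtrbohB mutant relative to wild type. Circles are wild type and triangles the mutant, and the dotted line is the floor of 14. For CML37 only the wild-type array at 40 °C, at 81.1, stands apart from the other 3.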

How the data were processed

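The authors deposited 1 table of summarised and scaled intensity values, 1 per probe set, not on a log scale; how they were summarised is not given in the sources used here. Of 22810 probe sets, 64 controls were left out. The platform annotation lists 1 gene for 13513, several for 503 and none for 8730; only those with 1 gene were named, and 13436 matched RefSeq (TAIR10.1). Gene lists, named genes and members were chosen with earlier results of these data known. Roles come from general knowledge of the loci.

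Signals were floored at 14 (25th percentile of the 4 arrays), put on log2 and tested with limma 3.58.1 in R 4.3.3 (eBayes with trend, 10.2 prior and 1 residual degrees of freedom, two-sided, Benjamini-Hochberg over 17723 probe sets), with genotype as a block. Calls needed an adjusted p under 0.05 and 2-fold. The fit was tested on simulated data. A gene with several probe sets was represented by its brightest. Named genes are the 12 largest called rises and falls of nuclear genes outside the chromosome 2 copy, by the smaller change of the genotypes and with both arrays of the brighter temperature at 4 times the floor, 4 mitochondrial and up to 4 plastid genes, up to 4 of each list, and the 6 largest genotype differences each way; other list members were named after their values were seen. Each group is 1 array of pooled plants, so p-values measure no spread between replicates. The spread of a probe set is the difference between its changes in the 2 genotypes, with 1 residual degree of freedom. It is combined with a prior of 10.2 degrees of freedom drawn from all tested probe sets, on which p-values and standard errors mostly rest. The number of arrays limits precision. Alternatives covered scaling, floor, filter, pseudocount, prior, block and each array left out. Promoter motifs were not analysed here.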

Additional observations from a re-analysis of the deposited data

Results flagged for a closer look

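Among the 12 genes picked for the largest difference between the genotypes, the change from 30 to 40 °C ran in opposite directions in 10. Picking genes by that difference favours opposite signs, so this count is a description. Some of the changes were small, such as -0.13 for CML37 in the mutant and -0.07 for AT4G28940 in wild type. Each was read from 1 array per genotype and temperature, and the difference was not tested. The mutant change minus the wild-type change was -2.41 for CML37, -2.09 for CML38 and -1.96 for AT1G77640, whose signals are given above. AT2G35390 had 39.7 (wild type) and 88.0 (mutant) at 30 °C and 66.0 and 32.0 at 40 °C, a difference of -2.19. AT3G02840 had 47.9 and 60.5 and then 105.2 and 31.5, a difference of -2.08.

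The other 5 moved further up in the mutant. AT1G60730 had a difference of 2.36. AT4G12490, of the lipid-transfer protein family, had 40.9 and 29.2 at 30 °C and 25.3 and 57.8 at 40 °C (1.68). AT2G47960 had 210.6 and 129.7 and then 124.2 and 214.5 (1.49). AT2G16690 had 85.9 and 46.1 and then 41.3 and 59.2 (1.42). AT4G28940 had 59.0 and 35.0 and then 56.2 and 86.6 (1.38). These genes were chosen for the size of the difference, so its size is a description.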

How the results depend on the processing

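The 24 named nuclear genes with the largest changes were called under each alternative that tested them. With all 4 arrays required above the floor, 12 were tested and called. All 24 were picked for large changes in both genotypes, which makes their calls hard to lose. Total calls ranged from 2090 to 2974 with an array left out (higher 882 to 1489, lower 1208 to 1559). The lowest, 882 higher, came without the mutant at 40 °C. Leaving out a 20 °C array returned the call counts of the main test, because the array left at 20 °C is then fitted exactly. Those fits give the upper ends of the ranges for total and lower calls. Without floor or filter, on log2(value + 16), 840 were higher. Scaling by the hybridization controls, added after seeing the data, gave 599 higher and 2636 lower. The adjusted p alone gave 7695 (4470 higher, 3225 lower). The genotype block pairs the 30 and 40 °C arrays of a genotype; without it 2944 were called. Beyond that block no paired analysis was possible because each group has 1 array. Keeping called probe sets of at least 4 times the floor, also added after seeing the data, left 1001 higher and 1333 lower. None of the 207 genes followed through the alternatives that tested them had a call that changed direction. The alternatives reuse the same arrays, which all but fixes this outcome, so it is no sign of robustness. A lone array left at a temperature is assumed to vary like the others. Signals near the floor of 14 limit the dim genes, whose folds are bounds.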

Other observations

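The following families of metabolism and transport were not described above; of all probe sets 7.98% were called higher and 8.8% lower, and several of the counts are near these shares. Of 36 tested UDP-glycosyltransferases, which attach sugars to small molecules, 5 rose and 5 fell (13.9% each way), and with a floor at the 40th percentile 3 fell. UGT72E1, of monolignol glucosylation, rose from 68.0 and 76.6 to 270.8 and 347.7 (2.09 ± 0.14), and UGT72E2 from 53.1 and 39.7 to 144.1 and 121.0 (1.52 ± 0.18). UGT78D1, a flavonol rhamnosyltransferase, rose from 36.4 and 32.0 to 142.6 and 138.2 (2.04 ± 0.19), while UGT76E2 fell from 71.7 and 48.0 to 17.8 and 9.5 (at least 3.72-fold). Of 12 tested beta-glucosidases 4 fell and 2 rose; BGLU25 went from 166.5 and 169.2 to 25.1 and 41.1 (-2.39 ± 0.21). Of 21 tested serine carboxypeptidase-like proteins 4 fell and 1 rose, and the largest change was that of SCPL34, from 143.9 and 176.3 to 35.4 and 38.0 (-2.12 ± 0.18).

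Among 30 tested genes of vesicle traffic 3 fell and 1 rose; with the scale of the hybridization controls 7 fell and 0 rose. PRA1.B4, a receptor of small GTPases, fell from 293.1 and 296.0 to 54.2 and 46.7 (-2.55 ± 0.15), and VPS60.1, of multivesicular bodies, from 198.4 and 201.6 to 71.4 and 56.4 (-1.66 ± 0.16). Of 14 tested SWEET sugar transporters 3 fell and 0 rose, and SWEET16, of the vacuole, went from 196.0 and 198.6 to 94.4 and 81.2 (-1.17 ± 0.15). MTP11, a manganese transporter, fell from 199.5 and 223.5 to 86.5 and 85.8 (-1.29 ± 0.15), with 583.1 and 599.7 at 20 °C. PUB19, a ubiquitin ligase of drought signalling, rose from 31.6 and 27.0 to 196.6 and 129.0 (2.45 ± 0.20). Of 11 tested ubiquitin-conjugating enzymes and 12 ubiquitin proteases 0 were called by limma with the 2-fold minimum; at an unadjusted p under 0.05 these counts were 8 and 5. The seed storage and pollen marker lists had 0 genes with a probe set of their own.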
